A study of Rattus norvegicus with 32 samples.

Results

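Sphingosine-1-phosphate (S1P) genes were followed in the RNA of liver sinusoidal endothelial cells (LSECs), the fenestrated endothelium that lines the liver sinusoids. The genes were chosen by symbol and number 9 of the 32623 in the files, all of which were found: the kinases Sphk1 (ENSRNOG00000010626) and Sphk2, the lyase Sgpl1, the exporter Spns2, and the receptors S1pr1, S1pr2, S1pr3, S1pr4 and S1pr5. The 22 libraries of the carbon tetrachloride (CCl4) model came from untreated (healthy) rats (n = 6) and from rats exposed to CCl4, a hepatotoxin, in 3 groups. Exposure lasted 2 weeks in 5 rats, 6 weeks in another 5, and 12 to 14 weeks, by when cirrhosis is established, in 6. The labels of the cirrhotic libraries say only that the rats were treated with CCl4, and the duration was taken from the design of the study. According to the study's methods the rats were male, CCl4 was inhaled with phenobarbital in the drinking water, and LSECs were isolated some days after the last dose by enzymatic digestion and a density gradient. The thioacetamide (TAA) experiment added 10 libraries, 5 labelled control and 5 labelled TAA control. Which of the 2 groups received TAA, a hepatotoxin too, could not be settled from the sources, so that no treatment direction was read from them. The labels give Wistar Han as the strain of every library, whereas the paper names Sprague-Dawley rats for TAA.

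S1P is a lipid signal made inside the cell. Sphingosine kinases phosphorylate sphingosine, which ceramidases release from ceramide. S1P lyase cleaves S1P irreversibly, phosphatases return it to sphingosine, and Spns2 exports it from endothelial cells, where it is carried in plasma by apolipoprotein M and albumin. Outside the cell it acts on G-protein-coupled receptors. S1pr1 couples to Gi and is known for keeping endothelial junctions tight and for activating endothelial nitric oxide synthase, S1pr2 and S1pr3 also couple to Gq and G12/13, and S1pr4 and S1pr5 are best known from leukocytes, S1pr5 above all from natural killer cells. In injured liver, S1P receptors have mostly been studied in stellate cells.

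Promoters are shown for S1pr1 and S1pr3, the receptors whose balance is followed here, for the lyase, which was the only member to rise at 2 weeks, and for the kinase Sphk2, which was lower at every CCl4 stage. They are RefSeq windows of build GRCr8, 250 bases before to 50 after the annotated start, and 8 of the 9 members, with 10 starts, were matched by symbol. Capitals mark CACCC on either strand (GGGTG on the other), the core bound by Kruppel-like factors such as Klf2, which is known to induce S1pr1. The window of S1pr1 is chr2:206314021-206314320 (minus strand), that of S1pr3 is chr17:13945964-13946263 (minus strand), that of Sgpl1 is chr20:29636829-29637128 (minus strand) and that of Sphk2 is chr1:105321588-105321887 (minus strand).
S1pr1: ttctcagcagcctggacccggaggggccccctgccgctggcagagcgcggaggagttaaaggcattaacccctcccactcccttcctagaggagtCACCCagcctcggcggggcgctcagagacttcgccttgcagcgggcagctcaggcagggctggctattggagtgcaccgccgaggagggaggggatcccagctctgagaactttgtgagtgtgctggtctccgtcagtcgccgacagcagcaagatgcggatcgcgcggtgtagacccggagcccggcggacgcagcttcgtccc
S1pr3: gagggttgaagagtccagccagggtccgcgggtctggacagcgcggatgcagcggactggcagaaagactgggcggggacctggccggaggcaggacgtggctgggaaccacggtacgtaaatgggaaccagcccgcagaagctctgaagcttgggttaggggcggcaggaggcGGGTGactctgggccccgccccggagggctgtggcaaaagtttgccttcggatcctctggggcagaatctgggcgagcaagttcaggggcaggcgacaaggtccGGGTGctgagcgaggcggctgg
Sgpl1: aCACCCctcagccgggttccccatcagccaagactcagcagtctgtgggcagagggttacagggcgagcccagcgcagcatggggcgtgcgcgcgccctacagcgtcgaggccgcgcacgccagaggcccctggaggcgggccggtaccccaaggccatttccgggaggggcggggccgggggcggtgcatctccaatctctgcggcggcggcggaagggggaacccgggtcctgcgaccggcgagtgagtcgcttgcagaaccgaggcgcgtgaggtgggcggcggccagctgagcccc
Sphk2: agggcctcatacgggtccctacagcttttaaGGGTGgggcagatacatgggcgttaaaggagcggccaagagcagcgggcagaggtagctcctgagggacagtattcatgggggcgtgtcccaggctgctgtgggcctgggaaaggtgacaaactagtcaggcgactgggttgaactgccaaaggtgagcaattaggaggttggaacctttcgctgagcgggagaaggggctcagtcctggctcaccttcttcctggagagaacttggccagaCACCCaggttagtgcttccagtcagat
These windows hold 1 match in S1pr1 and in Sgpl1 and 2 in S1pr3 and in Sphk2, while 54.9% of all 33465 promoters of this length hold at least 1. In S1pr1 the match starts 155 bases upstream of the start. The AP-1 sequence TGANTCA, which reads the same on both strands, was not found in these 4 windows and is present in 7.33% of all promoters. Among the other members it was found in the window of S1pr4 and in that of the second of the 3 annotated starts of Sphk1. The matches are a description of letters and were set beside no binding data.

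Depth ranged from 25646531 to 46464289 expected counts per library. Levels are given as counts scaled to library size (CPM), with TMM factors computed within the 22 CCl4 libraries and within the 10 TAA libraries separately, so that levels are not compared between the 2 experiments. Transcript lengths of the build used by the authors were not available here, so that levels are not compared between genes. Of the LSEC markers, 10 of 11 were in the files and none was below 1 CPM in every library of a group. Their summed level was 15400 to 30000 CPM in healthy libraries and 15900 to 20400 in cirrhosis, but 3670 to 4380 at 2 weeks and 2470 to 3470 at 6 weeks. Cdh5, the endothelial cadherin, was at 1290 ± 430 CPM (SD, n = 6) in healthy, 1600 ± 336 (n = 5) at 2 weeks, 1040 ± 123 (n = 5) at 6 weeks and 1510 ± 180 (n = 6) in cirrhosis. Summed markers of T, B and natural killer lymphocytes (12 genes) ranged from 22.4 to 409 CPM in healthy libraries, highest in healthy libraries 1 (409) and 2 (241). They ranged from 1.47 to 8.77 at 2 weeks, from 4.42 to 56.3 at 6 weeks and from 19.7 to 49.7 in cirrhosis. The 9 macrophage markers summed to 333 to 3470 CPM in healthy libraries and 796 to 2830 in cirrhosis. At 2 weeks they summed to 78 to 232 CPM and at 6 weeks to 33.2 to 211. The 6 hepatocyte markers summed to 699 to 17200 CPM in healthy libraries and 1610 to 11000 in cirrhosis. At 2 weeks their sum was 85.9 to 779 CPM and at 6 weeks 1030 to 4280. The part of these cells in the levels of the members was not tested. Summed early-response genes of tissue dissociation (10 genes, with Fos, Jun and Atf3 among them) ranged from 30100 to 61300 CPM in healthy libraries, from 1300 to 4420 at 2 weeks, from 3980 to 6450 at 6 weeks and from 18400 to 37400 in cirrhosis. In such bulk libraries, fewer cells of a type and less RNA per cell cannot be told apart. The sources used here give no batch, so that a stage and a difference in preparation between groups cannot be told apart either.

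**Figure D1:**
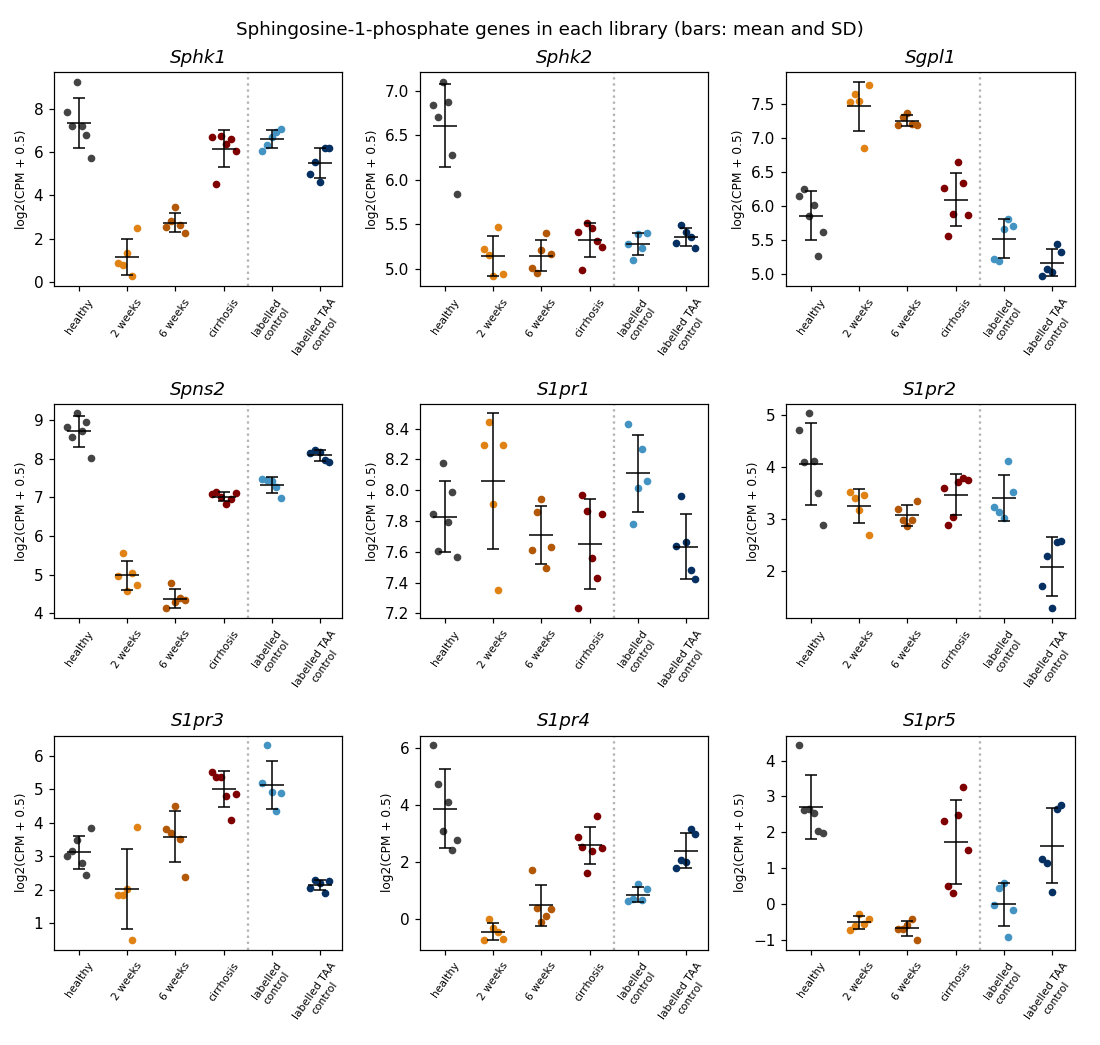
Level of each S1P gene in each library, as log2(CPM + 0.5), by group, with the mean and SD of the group as bars. To the left of the dotted line are the CCl4 libraries and to the right those of the TAA experiment, scaled separately. Sphk1 and Spns2 are lowest at 2 and 6 weeks, Sgpl1 is highest there, and S1pr1 overlaps between all CCl4 groups.

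The comparison of each stage with healthy LSECs asked how S1P genes differ between healthy rats and groups at successive stages of liver injury. After 2 weeks, 7 of 9 members passed the test (adjusted p-value under 0.05 over all genes tested and fold-change above 1.5 in limma-voom), 1 higher and 6 lower, against 73.4% of all 14317 genes tested (35.5% higher and 37.9% lower). At 6 weeks 7 of 9 passed, again 1 higher and 6 lower, against 70.2% of all genes (35.3% higher and 34.9% lower). In cirrhosis 3 of 9 passed, 1 higher and 2 lower, against 51.8% of all genes (27.1% higher and 24.7% lower). In either direction together the shares of members are near or below those of all genes, while at 2 and 6 weeks more of those that passed were lower than higher. What is described here is the direction and size of each. The groups did not overlap for 6, 6 and 3 members, against 60.0%, 58.7% and 27.2% of all genes. The median log2 fold-change of the 9 members was -1.44, -1.40 and -1.15, against -0.09, -0.03 and 0.07 over all genes tested. The 3 comparisons share the 6 healthy libraries.

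**Figure D2:**
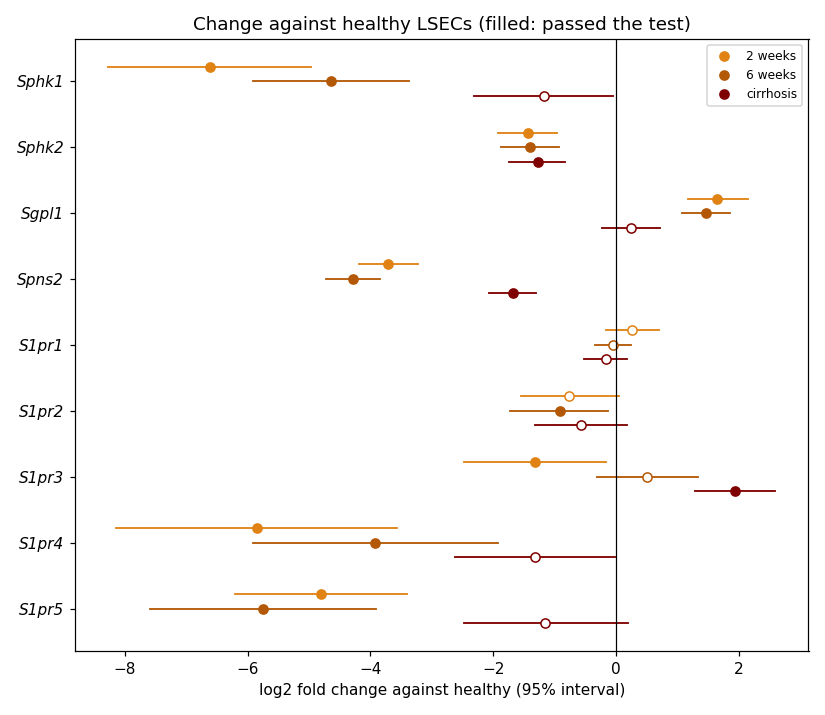
Log2 fold-change of each S1P gene against healthy LSECs at 2 weeks, 6 weeks and in cirrhosis, with its 95% interval from limma-voom. Filled points passed the test and open points did not. Sgpl1 stands to the right of 0 at 2 and 6 weeks and S1pr3 in cirrhosis, while S1pr1 lies near 0 at each stage.

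Sphk1, the kinase that growth factors and cytokines induce, had the largest fall of the members at 2 weeks. It ranged from 53.2 to 611 CPM in healthy libraries (median 147), with library 3 the highest. At 2 weeks it was 1.36, 1.23, 2.00, 0.691 and 5.15 CPM. At 6 weeks it was 5.25, 6.52, 10.5, 5.65 and 4.37 CPM, and in cirrhosis it ranged from 22.8 to 107 CPM (median 89.3). Every 2-week and 6-week library was thus below every healthy one, whereas cirrhotic libraries overlapped with healthy ones. The log2 fold-change was -6.62 ± 0.759 (SE) at 2 weeks (adjusted p = 6.81e-06), -4.65 ± 0.584 at 6 weeks (adjusted p = 1.76e-05) and -1.18 ± 0.524 in cirrhosis, where it did not pass (adjusted p = 0.0687, 95% interval -2.31 to -0.05). The last was past the threshold in 6 of 13 alternatives, edgeR (adjusted p = 0.0301) among them, and without healthy library 6 (0.0167). Adjusted p-values ranged from 0.00892 to 0.17 among the alternatives. Between stages Sphk1 rose by 2.02 from 2 to 6 weeks (adjusted p = 0.0113) and by 3.54 from 6 weeks to cirrhosis (adjusted p = 3.72e-05). The early-response genes of dissociation fell and returned over the same groups, and their part in the level of Sphk1 was not tested.

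Sphk2, the kinase found in nucleus and mitochondria, was lower by a similar amount at each stage. In healthy libraries it ranged from 56.8 to 137 CPM (median 109). It was 36.8, 35.3, 29.8, 44.0 and 30.2 CPM at 2 weeks and 31.7, 30.6, 36.5, 41.7 and 35.5 CPM at 6 weeks, and it ranged from 31.3 to 45.3 CPM in cirrhosis (median 40.8). No library of a treated group reached the lowest healthy one. Against healthy LSECs it changed by -1.44 ± 0.223 (adjusted p = 8.15e-05), -1.40 ± 0.218 (adjusted p = 9.92e-05) and -1.28 ± 0.213 (adjusted p = 0.000402). Between the 3 treated stages no difference passed the test, and the 95% interval of cirrhosis against 6 weeks was -0.07 to 0.41. The ratio of Sphk1 to Sphk2 counts within a library, whose absolute size depends on the lengths of the transcripts, had a geometric mean of 1.66 in healthy, 0.0475 at 2 weeks, 0.177 at 6 weeks and 1.80 in cirrhosis.

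Sgpl1, the lyase that degrades S1P for good, moved against the kinases. It ranged from 38.2 to 75.5 CPM in healthy libraries (median 61.0). At 2 weeks it was 184, 200, 186, 115 and 221 CPM, at 6 weeks 146, 158, 166, 148 and 146 CPM, and in cirrhosis it ranged from 46.8 to 99.7 CPM (median 67.5). All 10 libraries of 2 and 6 weeks were above all healthy and all cirrhotic ones. Sgpl1 rose by 1.65 ± 0.223 on the log2 scale at 2 weeks (3.15-fold, adjusted p = 2.64e-05) and by 1.47 ± 0.179 at 6 weeks (2.77-fold, adjusted p = 1.38e-05). In cirrhosis the difference was 0.25 ± 0.22 (adjusted p = 0.353, 95% interval -0.23 to 0.72), and it passed without TMM factors (0.59, adjusted p = 0.0269). Against 6 weeks the lyase in cirrhotic LSECs fell by 1.17 on the log2 scale (adjusted p = 4.08e-05). The counts of both kinases together relative to those of the lyase went from a geometric mean of 4.60 in healthy libraries (lowest 2.27) to 0.209 at 2 weeks (highest 0.389), 0.272 at 6 weeks (highest 0.321) and 1.67 in cirrhosis (1.16 to 2.61).

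**Figure D3:**
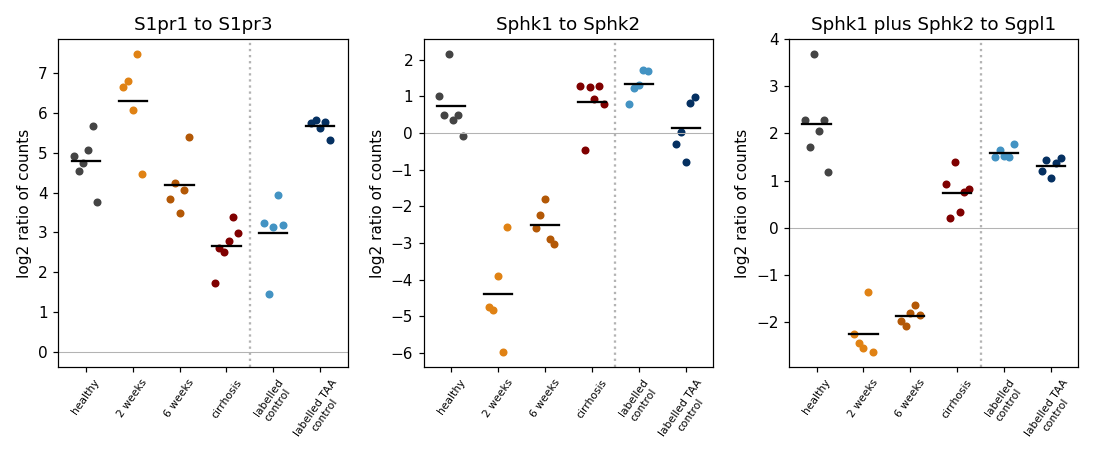
Log2 ratios of counts within each library, by group, with the mean as a line: S1pr1 to S1pr3, Sphk1 to Sphk2, and both kinases to the lyase Sgpl1. The absolute height of a ratio depends on transcript lengths and only differences between groups are read. The ratio of kinases to lyase is lower in all 10 libraries of 2 and 6 weeks than in every other library.

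Spns2, the transporter by which endothelial cells release S1P, was lower at every stage. In healthy libraries it ranged from 256 to 574 CPM (median 435). It was 31.0, 46.4, 23.4, 32.6 and 26.3 CPM at 2 weeks and 17, 26.9, 19, 20.4 and 19.7 CPM at 6 weeks, and ranged from 113 to 140 CPM in cirrhosis (median 131). Healthy, cirrhotic and the earlier treated libraries thus formed 3 levels that did not overlap. The log2 fold-change against healthy was -3.71 ± 0.22 at 2 weeks (13.1-fold lower, adjusted p = 2.78e-08), -4.29 ± 0.202 at 6 weeks (19.6-fold lower, adjusted p = 7.65e-09) and -1.68 ± 0.18 in cirrhosis (3.21-fold lower, adjusted p = 6.94e-05). Spns2 was 6.34-fold higher in cirrhosis than at 6 weeks (adjusted p = 8.28e-10). The 2-week and 6-week groups differed by -0.54 (adjusted p = 0.0604), which was past the threshold without 2-week library 3 (0.0384) or 8 (0.0357). Set against Cdh5 in the same library, Spns2 was lower than in healthy libraries too. The mean log2 difference was -4.10 at 2 weeks, -4.11 at 6 weeks and -1.98 in cirrhosis. Of the LSEC markers found in the files, Cdh5 alone had no lower mean at 2 weeks than in healthy libraries. The means of the others fell too, from 1340 to 849 CPM for Lyve1 and from 4960 to 149 CPM for Stab1. Between these lay Fcgr2b (2760 to 596), Flt4 (1090 to 177), Clec4g (308 to 39.5) and Mrc1 (2270 to 161). So did Kdr (3640 to 236), Stab2 (3480 to 148) and Oit3 (1500 to 49.7), while Spns2 went from 429 to 32 CPM. A ratio to Cdh5 could therefore not take out a fall shared with these markers. Whether Spns2 fell more than these markers was not tested.

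Among the receptors, S1pr1, the main S1P receptor of endothelium, had no comparison that passed the test. It ranged from 189 to 289 CPM in healthy libraries (median 225). At 2 weeks it was 313, 347, 240, 163 and 313 CPM, at 6 weeks 195, 232, 246, 180 and 198 CPM, and in cirrhosis it ranged from 150 to 250 CPM (median 209). All 4 groups overlapped. The log2 fold-change was 0.26 (95% interval -0.17 to 0.70) at 2 weeks, -0.05 (-0.35 to 0.25) at 6 weeks and -0.17 (-0.53 to 0.18) in cirrhosis, with adjusted p-values of 0.242, 0.744 and 0.389. Without TMM factors it was 0.67 at 2 weeks, which passed (adjusted p = 0.00366), and turned positive at 6 weeks (0.34) and in cirrhosis (0.18). That scaling moved the median of all genes to 0.32, 0.37 and 0.42. S1pr1 in cirrhosis against 2 weeks was -0.41 (adjusted p = 0.072) and passed without 2-week library 4 (-0.59, adjusted p = 0.00532).

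S1pr3, a Gq- and G12/13-coupled receptor, was the only member to pass the test as higher in cirrhosis than in healthy LSECs. In healthy libraries it ranged from 4.93 to 13.9 CPM (median 7.90). It was 3.08, 3.10, 3.53, 0.898 and 14.0 CPM at 2 weeks, 13.6, 12.3, 22, 10.8 and 4.72 CPM at 6 weeks, and ranged from 16.4 to 45.3 CPM in cirrhosis (median 34.8). Every cirrhotic library was above every healthy one, while 2-week library 8 stood with the highest healthy library and above the other 2-week ones. S1pr3 was 3.83-fold higher in cirrhosis than in healthy LSECs (log2 fold-change 1.94 ± 0.302, adjusted p = 0.000281), 2.80-fold higher than at 6 weeks (adjusted p = 0.00266) and 9.85-fold higher than at 2 weeks (adjusted p = 9.04e-05). At 6 weeks it was 0.51 ± 0.376 against healthy (adjusted p = 0.234). It passed without 6-week library 17 (0.84, adjusted p = 0.0279) and without TMM factors (0.91, adjusted p = 0.0444).

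The lower S1pr3 at 2 weeks was not stable. The log2 fold-change was -1.32 ± 0.534 (adjusted p = 0.0378), and the alternatives gave adjusted p-values from 0.00141 to 0.231, with 0.222 in edgeR. It stayed past the threshold without healthy library 5 or 2-week library 8, and not without any 1 of the other 9 libraries, for which the adjusted p ranged from 0.0509 to 0.13. Between 6 and 2 weeks S1pr3 differed by 1.89 (adjusted p = 0.0508), and past the threshold without 2-week library 8 (0.0146) or 6-week library 17 (0.0231).

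The balance of S1pr1 and S1pr3 followed from this. The ratio of their counts within a library had a geometric mean of 27.7 in healthy libraries (13.6 to 51.1), 78.9 at 2 weeks (22.3 to 179), 18.4 at 6 weeks (11.2 to 41.8) and 6.36 in cirrhosis (3.31 to 10.5). The highest cirrhotic ratio was below the lowest of every other CCl4 group. Pdgfrb, a marker of stellate cells and pericytes that carry S1pr3 too, had a mean of 7.24 CPM in healthy libraries (4.12 to 12.8), 1.06 at 2 weeks, 8.05 at 6 weeks and 41.1 in cirrhosis (15.7 to 55.4). The 10 stellate and fibroblast markers found in the files summed to 168 to 302 CPM in healthy libraries, 1310 to 2130 at 2 weeks, 1270 to 1720 at 6 weeks and 242 to 613 in cirrhosis. Reln alone made up most of the sum on average in healthy libraries and at 2 and 6 weeks. Its mean was 167 CPM in healthy libraries, 1680 at 2 weeks, 1380 at 6 weeks and 208 in cirrhosis. Lrat, which stores retinol in stellate cells, had means of 31.9, 4.36, 3.83 and 83.1 CPM in the same order, and the collagen gene Col1a1 had 10.1, 1.49, 47.5 and 50.9 CPM. Both were lower at 2 weeks than in healthy libraries and highest in cirrhosis, whereas Acta2, the actin of activated stellate cells, was highest at 6 weeks (0.998, 2.11, 26.1 and 7.86 CPM). At 2 weeks 4 of the 10 markers were below 1 CPM in every library, against 2 in healthy libraries and 2 at 6 weeks. None of those 10 markers was below 1 CPM in every cirrhotic library. Summed lymphatic endothelial markers (Prox1, Pdpn and Ccl21) were 12.7 to 21.7 CPM in healthy libraries, 2.53 to 15.1 at 2 weeks, 5.86 to 11.9 at 6 weeks and 534 to 2200 in cirrhosis. Their part in the level of S1pr3 was not tested.

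S1pr2, a receptor coupled to G12/13, was at 6.87 to 32.1 CPM in healthy libraries (median 16.7). It was 10.9, 10.1, 8.50, 10.5 and 6.00 CPM at 2 weeks, 8.66, 7.36, 6.75, 7.40 and 9.68 CPM at 6 weeks, and 6.89 to 13.3 CPM in cirrhosis (median 12.1). Each treated group overlapped with the healthy one, whose library 6 was the lowest of its group. The log2 fold-change was -0.76 at 2 weeks (adjusted p = 0.075), -0.92 ± 0.364 at 6 weeks (adjusted p = 0.0361) and -0.57 in cirrhosis (adjusted p = 0.175). At 2 weeks S1pr2 passed in 7 of 13 alternatives, with adjusted p-values from 0.00189 to 0.335 (0.026 in edgeR and 0.0185 in DESeq2). At 6 weeks the call held without healthy library 5 or 6 or 6-week library 17 and was lost without any 1 of the other 8 libraries (adjusted p 0.0532 to 0.0752), over a range of 0.000187 to 0.151 among the alternatives. Without healthy library 6 the difference passed at 2 weeks (0.0103) and in cirrhosis (0.0217), and at 2 weeks also without healthy library 5 (0.0454).

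S1pr4, a receptor of lymphocytes and other leukocytes, fell far at 2 and 6 weeks. In healthy libraries it ranged from 4.97 to 68.5 CPM (median 12.5), highest in library 1. It was 0.109, 0.517, 0.306, 0.230 and 0.126 CPM at 2 weeks, 2.84, 0.811, 0.432, 0.574 and 0.787 CPM at 6 weeks, and 2.56 to 11.8 CPM in cirrhosis (median 5.25). These are 4 to 19 counts per library at 2 weeks, so that the size of the fall is less certain than that of Spns2. On the log2 scale S1pr4 changed by -5.85 ± 1.05 at 2 weeks (adjusted p = 0.00027) and -3.93 ± 0.916 at 6 weeks (adjusted p = 0.00199). In cirrhosis it was -1.32 ± 0.609 (adjusted p = 0.0777), with adjusted p-values from 0.00317 to 0.345 among the alternatives, and it passed without healthy library 5 (0.0268) or 6 (0.0443). With healthy libraries 1 and 2 left out together, an alternative added after seeing the data, it was -4.97 at 2 weeks, -3.12 at 6 weeks and -0.50 in cirrhosis.

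S1pr4 moved with the lymphocyte markers from library to library. The 2 healthy libraries with the most lymphocyte RNA, 409 and 241 CPM, had 68.5 and 26.4 CPM of S1pr4, and the 2 with the least, 22.4 and 37.4 CPM, had 4.97 and 6.36. The 6-week library with 56.3 CPM of lymphocyte markers was also the one with 2.84 CPM of S1pr4, the highest of its group. At 2 weeks 9 of the 12 lymphocyte markers were below 1 CPM in every library. The part of lymphocytes or macrophages in the level of S1pr4 was not tested.

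**Figure D4:**
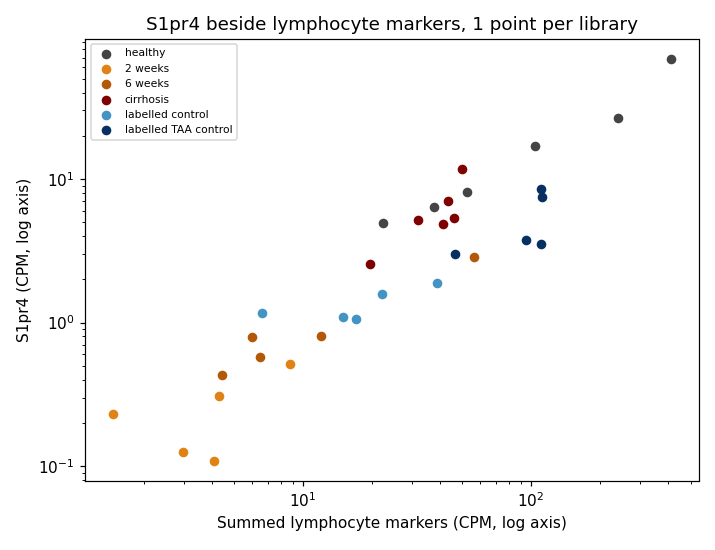
S1pr4 against the summed level of 12 lymphocyte markers, 1 point per library, both as CPM on log axes. Healthy library 1 stands at the upper right with 68.5 CPM of S1pr4 and 409 CPM of markers, and the 2-week libraries at the lower left. CPM of the CCl4 and TAA libraries were scaled separately.

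S1pr5, known from natural killer cells, oligodendrocytes and some endothelium, had 0 to 12 counts in each library of 2 and 6 weeks. In healthy libraries it ranged from 3.49 to 21.0 CPM (median 5.52), with library 1 again the highest. It was 0.109, 0.163, 0.333, 0.184 and 0.253 CPM at 2 weeks, 0.115, 0.125, 0.166, 0.258 and 0 CPM at 6 weeks, and 0.736 to 9.05 CPM in cirrhosis (median 3.44). The log2 fold-change was -4.80 ± 0.646 at 2 weeks (adjusted p = 2.57e-05), -5.75 ± 0.846 at 6 weeks (adjusted p = 6.33e-05) and -1.15 ± 0.619 in cirrhosis (adjusted p = 0.128). Without 6-week library 17, the one at 0, the 6-week value was -5.02. S1pr5 passed in cirrhosis without cirrhotic library 5 (-1.52, adjusted p = 0.0485). It was too low for the test of 6 against 2 weeks.

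The comparisons between stages showed which members differed between the treated groups. From 2 to 6 weeks, 2 of 8 members tested passed, both higher, against 11.0% of all genes (10.2% higher and 0.732% lower), and no member was free of overlap between these groups (17.2% of all genes). They were Sphk1, which was lost in a single fit over the CCl4 libraries (adjusted p = 0.171), and S1pr4 (log2 fold-change 1.98, adjusted p = 0.0393), which was lost without any 1 of 2-week libraries 1, 3, 4 and 8 or 6-week libraries 13, 16 and 17 (adjusted p 0.0535 to 0.0991), over a range of 0.00557 to 0.361 among the alternatives. From 6 weeks to cirrhosis 6 of 9 passed, with Sphk1, S1pr3, S1pr4, S1pr5 and Spns2 higher and Sgpl1 lower, against 63.8% of all genes (34.3% higher and 29.5% lower), and 4 did not overlap (63.3% of all genes). From 2 weeks to cirrhosis the same 6 members passed in the same directions, against 69.3% of all genes (37.5% higher and 31.8% lower), and 6 did not overlap (65.9% of all genes). S1pr5 was 4.66 higher on the log2 scale in cirrhosis than at 6 weeks (adjusted p = 0.00644), or 3.93 without 6-week library 17, and S1pr4 was 2.66 higher (adjusted p = 0.000885). The order of mean levels was healthy, cirrhosis, 6 weeks and 2 weeks for Sphk1 and S1pr4, and the first 2 did not pass the test against each other. For Spns2 it was healthy, cirrhosis, 2 weeks and 6 weeks, of which the last 2 did not pass. S1pr5 had the same order, and healthy and cirrhotic LSECs did not pass, while 2 and 6 weeks were not tested. For Sgpl1 it was 2 weeks, 6 weeks, cirrhosis and healthy, and neither the first 2 nor the last 2 passed. S1pr3 had the order cirrhosis, 6 weeks, healthy and 2 weeks, with means of 33.2, 12.7, 8.65 and 4.92 CPM. Its rise from 6 weeks to cirrhosis thus led away from the healthy level.

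In the TAA experiment, 6 of 9 members differed between the 2 groups, 3 in each direction, against 27.6% of all 14376 genes tested (12.7% higher and 14.9% lower). The groups did not overlap for 4 members (35.4% of all genes). Values are given as the group labelled TAA control minus the group labelled control. S1pr3 was 36.2, 79.4, 29.5, 20.1 and 29.2 CPM in the libraries labelled control and 3.67, 4.34, 4.08, 3.24 and 4.26 CPM in those labelled TAA control, a log2 difference of -3.14 ± 0.453 (adjusted p = 0.000315). Spns2 was 176, 175, 171, 153 and 126 CPM against 283, 296, 289, 247 and 242 CPM, a difference of 0.76 ± 0.105 (adjusted p = 0.000241). S1pr2 was 8.85, 8.31, 7.58, 16.8 and 10.9 CPM against 2.78, 4.40, 1.94, 5.41 and 5.50 CPM (-1.46, adjusted p = 0.00316). These 3 and S1pr4 were separate between the groups, with S1pr3 and S1pr2 lower and Spns2 and S1pr4 higher in the group labelled TAA control.

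Of the other members, Sphk1 was 65.9 to 135 CPM in the group labelled control and 24.4 to 73.0 in the other (-1.12, adjusted p = 0.0131). S1pr4 was 1.06 to 1.89 CPM against 3.02 to 8.45 CPM (1.81, adjusted p = 0.00251). S1pr5 was 0.0352 to 1.02 CPM against 0.757 to 6.26 CPM (2.58, adjusted p = 0.034), and was lost without control library 1 (0.0568), 4 (0.0738) or 5 (0.07) or TAA control library 14 (0.0509), over a range of 0.000829 to 0.0615 among the alternatives. S1pr1 was lower by less than the fold threshold (-0.48, adjusted p = 0.0121), and neither Sphk2 (0.08, 95% interval -0.09 to 0.25) nor Sgpl1 (-0.36, adjusted p = 0.061) passed. The geometric mean ratio of S1pr1 to S1pr3 counts was 7.95 (2.76 to 15.3) in the group labelled control and 50.6 (39.8 to 57.1) in the group labelled TAA control. Lymphocyte markers summed to 6.59 to 38.5 CPM against 46.5 to 112 CPM, lymphatic endothelial markers to 509 to 2590 against 12.0 to 22.7, and Pdgfrb was at 54.1 to 145 against 1.15 to 3.26 CPM. The early-response genes of dissociation summed to 12000 to 24400 CPM against 38000 to 55000 CPM. The part of these cells and genes in the differences was not tested.

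Of the other genes of the S1P pathway, Klf2, the shear-stress factor that induces S1pr1, fell by 6.95 on the log2 scale at 2 weeks (5.09 ± 2.66 against 585 ± 213 CPM, adjusted p = 2.91e-08), and was at -6.29 at 6 weeks (adjusted p = 7.65e-09) and -1.44 in cirrhosis (adjusted p = 0.00166). S1pr1 changed by 0.26, -0.05 and -0.17 at these stages, and a link between Klf2 and S1pr1 was not tested. The summed early-response genes of dissociation were also lower at 2 and 6 weeks than in healthy libraries. Their part in the level of Klf2 was not tested. Cd69, which removes S1pr1 protein from the surface of lymphocytes, was 1.30 higher in cirrhosis (adjusted p = 0.0134). The lists of other pathway genes are given by the number that passed and by the median log2 fold-change at 2 weeks, at 6 weeks and in cirrhosis. Over all genes tested, 73.4%, 70.2% and 51.8% passed (35.5%, 35.3% and 27.1% higher and 37.9%, 34.9% and 24.7% lower), and the medians were -0.09, -0.03 and 0.07.

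Among the 18 genes of receptor coupling and effectors, 2 rose and 9 fell at 2 weeks, 2 rose and 10 fell at 6 weeks, and 7 rose and 8 fell in cirrhosis (medians -0.60, -0.81 and -0.47). In either direction 11, 12 and 15 of the 18 passed. Nos3, the nitric oxide synthase activated through S1pr1, fell by 4.93 at 2 weeks (33.0 ± 3.69 against 1080 ± 354 CPM, adjusted p = 4.71e-09) and fell by 4.99 at 6 weeks (adjusted p = 7.14e-09). In cirrhosis Nos3 was still lower than in healthy LSECs, at 409 ± 42.6 CPM (-1.32, adjusted p = 0.00038). Rock2, a kinase that promotes actomyosin contraction, rose by 4.30 at 2 weeks (397 ± 87.5 against 26.1 ± 19.0 CPM, adjusted p = 5.38e-06), 4.23 at 6 weeks (adjusted p = 6.64e-06) and 2.47 in cirrhosis (adjusted p = 0.000631). Gna11, a Gq-class alpha subunit, had the largest fall of the list in cirrhosis (-1.56, adjusted p = 0.000124).

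Of the 5 S1P phosphatases 4 were tested. At 2 and at 6 weeks 2 of them fell, and in cirrhosis their adjusted p-values were 0.134 to 0.85 in limma-voom (medians -1.28, -0.84 and -0.25). Plpp3, which dephosphorylates S1P outside the cell, fell by 1.58 at 2 weeks (adjusted p = 0.000424) and fell by 1.49 at 6 weeks (adjusted p = 2.61e-05).

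Of the 5 ceramidases 4 were tested, and 1 rose and 2 fell at 2 and at 6 weeks, while all 4 rose in cirrhosis (medians -0.13, -0.50 and 1.01). Acer2, the Golgi ceramidase, fell by 2.08 at 2 weeks (72.9 ± 17.3 against 338 ± 155 CPM, adjusted p = 5.41e-05) and fell by 1.87 at 6 weeks (adjusted p = 7.63e-05) and rose by 1.02 in cirrhosis (643 ± 190 CPM, adjusted p = 0.0104). Acer3 rose by 1.82 at 2 weeks (adjusted p = 0.000291) and by 1.99 at 6 weeks (adjusted p = 0.000137).

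Among the carriers and other transporters, of which 4 of 5 were tested, 2 rose and 1 fell at 2 weeks, 2 rose at 6 weeks and 1 rose in cirrhosis (medians 0.13, 0.68 and 0.16). Abca1, a cholesterol and phospholipid exporter that also moves S1P, rose by 2.16 at 2 weeks (575 ± 66.0 against 133 ± 24.7 CPM, adjusted p = 2.94e-07) and by 2.16 at 6 weeks (adjusted p = 3.34e-07). Apom, the S1P carrier that hepatocytes secrete, fell by 3.82 at 2 weeks (adjusted p = 0.00174). Summed hepatocyte markers were 699 to 17200 CPM in healthy libraries and 85.9 to 779 at 2 weeks, and their part was not tested.

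Of the 6 ceramide synthases 5 were tested, with 1 higher and 3 lower at 2 and at 6 weeks and 3 lower in cirrhosis (medians -0.73, -1.10 and -0.92). Cers6 rose by 3.68 at 2 weeks (adjusted p = 4.95e-07) and by 2.90 at 6 weeks (adjusted p = 4e-06), whereas Cers4 changed by -1.34 (adjusted p = 0.000504) and -1.92 (adjusted p = 4.46e-05). Cers1 fell by 3.34 in cirrhosis (adjusted p = 0.0222) and was listed at 0 in all libraries of 2 and 6 weeks. In the list of de novo synthesis (9 genes, of which 7, 7 and 8 were tested), 1 rose and 3 fell at 2 weeks, 4 fell at 6 weeks, and 1 rose and 5 fell in cirrhosis (medians -0.36, -0.72 and -0.72). Kdsr rose by 0.76 at 2 weeks (adjusted p = 0.00305), Sptlc1, a subunit of the enzyme that starts the pathway, fell by 1.07 at 6 weeks (adjusted p = 2.72e-05), and Ormdl3, its inhibitor, fell by 0.89 at 2 weeks (adjusted p = 0.0025) and fell by 1.10 in cirrhosis (adjusted p = 0.000843).

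Genes whose pattern was most like that of a member were sought among 13287 genes over the 22 CCl4 libraries, as Pearson's r of log2 CPM. Since libraries of a group share their treatment, r within groups is given beside it, and both are descriptions. S1pr4 was most like Nkg7 (r = 0.98, 0.93 within groups), Cd37 (0.98, 0.92) and Gzma (0.98, 0.92), which are genes of cytotoxic cells and B cells. S1pr5 was most like Chi3l1 (0.99, 0.95), Krt75 (0.97, 0.95) and Mal (0.97, 0.95). Spns2 was most like Sorbs3 (0.99, 0.79), Myo1c (0.99, 0.71) and Tspan9 (0.99, 0.80). Sphk1 was most like Rnf19b (0.98, 0.91), Rnf122 (0.98, 0.80) and Glul (0.98, 0.85).

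Likeness was lower for the remaining receptors. S1pr2 was most like Nab2 (0.92, 0.89), Dgat1 (0.90, 0.87) and Madd (0.89, 0.83), and S1pr3 most like Klhl29 (0.93, 0.74), Adcyap1r1 (0.92, 0.72) and Rgs2 (0.91, 0.67). S1pr1 had the weakest likeness, with Smim3 (0.70, 0.67), Chst1 (0.70, 0.63) and Ndfip1 (0.67, 0.71). Sphk2 was most like Orai3 (0.97, 0.88), Wdtc1 (0.97, 0.80) and Ghdc (0.97, 0.78), and Sgpl1 most like Rap2b (0.96, 0.78), Slc39a6 (0.96, 0.82) and Diaph1 (0.95, 0.80).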

How the data were processed

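LSEC RNA was sequenced in 32 libraries with a stranded poly(A) kit, and the authors used STAR for alignment to the Rnor_6.0 build and RSEM for counting. The authors deposited expected counts (estimated counts, not normalized) of 32623 genes, which were rounded here. Tests were limma-voom fits with TMM factors and filterByExpr on the 2 groups compared (limma 3.58.1, edgeR 4.0.16, DESeq2 1.42.0, R 4.3.3). Figures used Python 3.11.15 and matplotlib 3.10.9. A gene was called at a Benjamini-Hochberg adjusted p-value under 0.05 over all genes tested and a fold-change above 1.5. The p-values set the difference between 2 group means against the spread between libraries within the groups. log2 CPM used a pseudocount of 0.5, and scripts were tested on simulated data. All members were named, and for each pathway list the largest rise and fall among called genes with a mean log2 CPM of at least 1. The members and lists were chosen with earlier results of these data known. Groups and replicate numbers come from the labels, whose titles and descriptions differ in 4 of the libraries labelled TAA control. Alternatives were other tests, factors, filters, weights and call rules, a single fit, a replicate block and each library left out. RSEM divides reads shared by similar genes, which makes low values less certain.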

Additional observations from a re-analysis of the deposited data

Results flagged for a closer look

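Within groups, 4 of 54 sets of member values had 1 library apart from the rest, where chance gives about 2.7 (1 in 20). Cirrhotic library 2 was lowest for Sphk1 (22.8 CPM), 6-week library 12 highest for S1pr4 (2.84 CPM), healthy library 1 highest for S1pr5 (21.0 CPM) and 2-week library 4 lowest for Sgpl1 (115 CPM).

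Members that passed between 2 CCl4 stages are listed again here, as the later stage minus the earlier. The values come from the same limma-voom fits as above, which held those 2 stages and no healthy library. Between 6 and 2 weeks the difference was 2.02 on the log2 scale for Sphk1 and 1.98 for S1pr4. Between cirrhosis and 6 weeks it was 3.54 for Sphk1, 1.49 for S1pr3, 2.66 for S1pr4, 4.66 for S1pr5, -1.17 for Sgpl1 and 2.67 for Spns2. Between cirrhosis and 2 weeks it was 5.48 for Sphk1, 3.30 for S1pr3, 4.56 for S1pr4, 3.69 for S1pr5, -1.38 for Sgpl1 and 2.05 for Spns2.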

How the results depend on the processing

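Over 719 values of single members under another test, scaling, filter, weighting, call rule or fit, 676 kept their direction and their side of the threshold, 10 lost the call, 29 gained it and 4 turned. With 1 library left out, 630 of 674 did so, 28 lost the call, 13 gained it and 3 turned. The cause was not tested. All that turned concern S1pr1, at 6 weeks and in cirrhosis against healthy without TMM factors (0.34 and 0.18) and in cirrhosis against 6 weeks with upper-quartile factors (0.03) or the stricter low-count filter (0.02). With 1 library left out S1pr1 ranged from -0.16 to 0.01 at 6 weeks against healthy and from -0.12 to 0.03 in cirrhosis against 6 weeks. In cirrhosis against healthy, 5 members in place of 3 passed with edgeR, DESeq2, unadjusted p-values, the single fit or the replicate block, and 6 with quality weights. Between 6 and 2 weeks, 1 member in place of 2 passed with the stricter filter or the single fit, and 4 with quality weights.

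With 1 library left out, 6 to 8 members passed at 2 weeks and 6 to 8 at 6 weeks against healthy, 3 to 6 in cirrhosis (6 without healthy library 6), 1 to 3 between 6 and 2 weeks, 6 between cirrhosis and 6 weeks, 6 to 7 between cirrhosis and 2 weeks and 5 to 6 in the TAA experiment. With healthy libraries 1 and 2 left out, an alternative chosen after seeing the data, 6, 6 and 3 members passed. Without TMM factors 58.2%, 60.9% and 71.3% of all genes called against healthy were higher at the 3 stages, against 48.4%, 50.3% and 52.2%. Between 6 and 2 weeks 1529 genes were called, against 615 with the stricter filter, 746 in the single fit, 2346 with quality weights and 2826 without the fold threshold. In the TAA experiment 3970 were called, against 2245 with the stricter filter and 7139 without the fold threshold.

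Same-numbered libraries did not deviate together in every pair (r from -0.24 to 0.29 between healthy and cirrhotic libraries, 1 of 6 closest to its own number), so that the numbers were not read as pairs. With the replicate block 8 members in place of 7 passed at 2 weeks and 6 as before between cirrhosis and 2 weeks. TAA control libraries 14 and 15 were closer to each other than other pairs (chi-square per degree of freedom 2.96 against at least 25.9) but differed by more than counting noise. Whether they come from 2 rats cannot be told from the counts, and the tests took them as 2 libraries. With library 14 left out, S1pr5 was lost in limma-voom (adjusted p = 0.0509). Depth limits S1pr4 and S1pr5 at 2 and 6 weeks, with as few as 4 and 0 counts.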
